A study of Mus musculus with 1 sample.

Results

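SSC-like undifferentiated spermatogonia are the germ cells of this testis library that combine transcripts of the neurofilament gene Nefm, the LIM-homeobox gene Lhx1, the ETS factor Etv5 and the transcriptional repressor Bcl6b with little Kit or Stra8. SSC stands for spermatogonial stem cell. The rule found 70 such cells among 265 germ cells (26.4%, exact binomial 95% interval 21.2 to 32.2%), 702 cells that passed the limits on quality and 970 cell barcodes in all. The library was made from testis cells of 3 wild-type C57BL/6 mice, the controls of a Zscan2 knockout, at postnatal day 8, which were pooled, enriched for THY1 with magnetic beads and mixed with some unselected testis cells. Transcripts were counted on a droplet platform as unique molecular identifiers (UMIs), each marking 1 captured RNA molecule. The 70 cells are therefore 1 pooled sample without replicates, no test was made, and their share follows the mixture loaded. A knockout library was not analysed here. Every interval given is an exact 95% interval for counting error, and none covers variation between mice.

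Undifferentiated spermatogonia hold the stem cells of the male germline together with progenitors that have left the stem cell state and can still divide before they differentiate. Sertoli cells and other somatic cells of the testis secrete GDNF, which acts on the germ cells through the co-receptor GFRA1 and the receptor tyrosine kinase RET, and FGFs, which act through the MAPK cascade. Retinoic acid later drives progenitors into differentiation, when Kit and Stra8 are switched on.

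A member had at least 500 genes, under 10% mitochondrial UMIs and at least 7000 UMIs. Per 10000 UMIs it also had at least 4 UMIs of the germ cell genes Dazl, Ddx4, Mael, Zbtb16 and Sohlh1 together, under 4 of Kit and Stra8, and at least 2 of Nefm, Lhx1, Etv5 and Bcl6b. Fewer than 2 UMIs of Ly6k, Esx1 and Prss50 were allowed. The 195 other germ cells were 100 remaining Kit/Stra8-low cells, which met every condition but the Nefm, Lhx1, Etv5 and Bcl6b score, 49 Kit/Stra8-high cells and 46 late cells with at least 2 UMIs of Ly6k, Esx1 and Prss50. Of the 74 germ cells with a score of at least 2, 1 was Kit/Stra8-high and 3 were late, and these were not members. Another 62 barcodes had the germ cell score but too few UMIs. These classes were rebuilt from marker scores and are ranges along measured values, not types given by the depositors. The 368 cells with a germ cell score under 1 served as somatic cells for the background of free RNA.

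The members were deeply sequenced. They held 1587761 UMIs, with a median of 21999 UMIs per cell (lowest 11965, highest 44777) and a median of 4774.5 genes. The remaining Kit/Stra8-low cells had medians of 20038.5 UMIs and 4550.5 genes, and the somatic cells a median of 9334 UMIs. The median mitochondrial share was 7.03% in the members and 7.15% in the remaining Kit/Stra8-low cells. With a limit of 5%, only 4 SSC-like cells among 25 germ cells would have been kept. Among these 4 is the member rich in somatic transcripts that is described below.

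The values that chose the members are given once, as a description. The score of Nefm, Lhx1, Etv5 and Bcl6b had a median of 4.41 per 10000 UMIs in the members and reached 17.9. The 5 members nearest the limit scored 2.04, 2.04, 2.1, 2.11 and 2.33, and the 5 Kit/Stra8-low cells just outside scored 1.90, 1.79, 1.71, 1.67 and 1.67. The limit thus crosses a continuous range: 11 members scored under 3 and 21 remaining cells scored at least 1, while 57 remaining cells scored 0. In raw counts a member had between 3 and 54 UMIs of these genes, with a median of 10. Nefm was found in 68 of the 70 cells, Etv5 in 56, Lhx1 in 48 and Bcl6b in 28. All 4 genes were found in 19 members and 1 gene alone in 5.

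**Figure D1:**
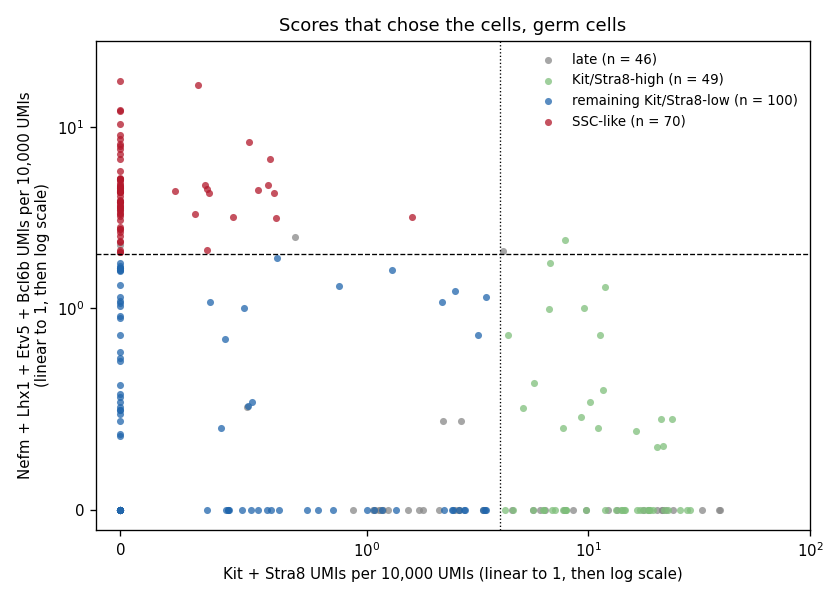
Score of Nefm, Lhx1, Etv5 and Bcl6b (y axis) against the score of Kit and Stra8 (x axis), both in UMIs per 10000 UMIs of the cell, for the 265 germ cells; each point is 1 cell and the lines mark the limits of 2 and 4. The 70 SSC-like cells lie above the dashed line and left of the dotted line, and the cells just below the dashed line follow without a gap.

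One member stood apart. It had 21882 UMIs, of which 87.7 per 10000 came from the Sertoli, stromal, myoid, macrophage, T cell and endothelial marker lists, whereas the next highest member had 12.2 and the median member 5.81. It carried 160 UMIs of stromal markers beside a germ cell score of 10.5, and it was the 1 member that scrublet, a doublet caller, marked as a doublet. The rule kept it, and the results that rest on it are also given without it. The other 69 members carried stromal markers at 153 CPM (UMIs per 1000000 UMIs of the class), against 194 CPM in the other germ cells.

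Marker genes that the rule did not use are described next. Gfra1 and Dusp6 were among the markers given for this part when it was chosen, so their levels are no independent check of the label. Gfra1, which encodes the GDNF co-receptor (GRCm38, chromosome 19, 58235581 to 58455946), stood at 79.4 CPM in the members (exact Poisson interval 66.1 to 94.5), 20.7 in the remaining Kit/Stra8-low cells, 20.4 in Kit/Stra8-high cells and 8.16 in late cells. The interval of the members did not overlap that of any other germ cell class. The level was 4.37 times that in the other germ cells (interval 3.23 to 5.95) and 3.82 times that in the remaining Kit/Stra8-low cells (2.68 to 5.56). At least 1 Gfra1 UMI was found in 77.1% of members and 27% of the remaining cells, against 0.543% of somatic cells. With every cell thinned to 7000 UMIs these shares were 40%, 12% and 0.543%.

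Dusp6, a phosphatase that switches off ERK and is itself an ERK target, stood at 66.1 CPM (54.1 to 80.1) in SSC-like cells and at 14.8, 8.15 and 4.08 in the remaining, Kit/Stra8-high and late cells. A UMI was found in 62.9% of members and 14.4% of the other germ cells. Somatic cells also carry Dusp6, at 32.3 CPM and in 22.0% of cells. Id4, an inhibitor of basic helix-loop-helix factors long used to mark SSCs, was at 27.7 CPM in members, 10.9 in the remaining cells, 3.06 in Kit/Stra8-high cells and at no UMI in late cells. Eomes, a T-box factor of stem cell spermatogonia, gave 19 UMIs in members (12 CPM) and 7 in the other germ cells (1.87 CPM), which was too few for the comparison across genes. Nanos2, an RNA-binding protein that maintains SSCs, separated the members from the later cells but not from the remaining Kit/Stra8-low cells. It was at 17.6 CPM in members and 15.3 in the remaining cells, a ratio of 1.15 (0.666 to 1.98). Thy1, whose product was used for the enrichment, gave 6 UMIs in the members. A Thy1 UMI was found in 7.14% of members and 3.53% of somatic cells, so that its transcript was hardly detectable at this depth in the germ cells.

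Across the genome 8114 genes had at least 50 UMIs in the germ cells, leaving out the 14 genes of the rule. Of these, 237 (2.92%) were at least 2-fold higher in SSC-like cells than in the other germ cells and 284 (3.5%) at least 2-fold lower, and the interval of the ratio left out 1 for 237 and 277 of them. Against the remaining Kit/Stra8-low cells 254 (3.13%) were higher and 193 (2.38%) lower, with intervals that left out 1 for 245 and 169. Without the member rich in somatic transcripts the counts were 230 and 286 over the other germ cells and 242 and 192 over the remaining ones. Both contrasts hold the same SSC-like cells, and the 100 remaining cells are among the 195 other germ cells. The median log2 ratio of all genes was -0.03 in the first contrast and 0.04 in the second. The cells were chosen along these contrasts, so that the counts describe them and carry no weight as tests. The UMIs of the members also count toward the limit of 50, so genes rare elsewhere could enter only through the members. This holds for every list count below.

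**Figure D2:**
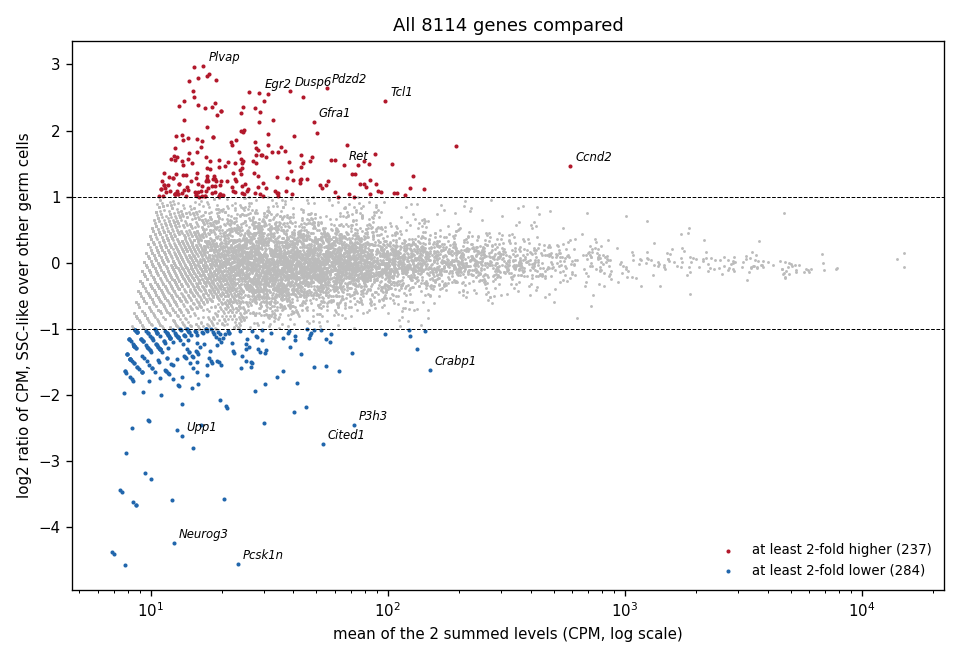
Log2 ratio of CPM in SSC-like over other germ cells (y axis) against the mean of the 2 levels (x axis, log scale) for 8114 genes; each point is 1 gene and dashed lines mark 2-fold. The 237 higher and 284 lower genes lie mostly below 100 CPM, and Ccnd2 is the most abundant gene past the upper line.

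The genes with the largest ratios over the other germ cells were of mixed kinds, and no shared function was tested. They were picked for large ratios among genes found in a minimum share of the members. Several, such as Plvap and Rab4a, passed the count limit only through the members' own UMIs. Large ratios were thus favored by the choice, and the intervals do not account for it. The genes ranked against the remaining Kit/Stra8-low cells were picked in the same way. Plvap, a glycoprotein of caveolae and fenestrae best known from endothelium, was at 29.6 CPM in members, 2.47 in the remaining Kit/Stra8-low cells, 6.12 in Kit/Stra8-high cells and 4.08 in late cells. Its ratio was 7.91 (4.28 to 15.6) over the other germ cells and 12 (4.79 to 38.6) over the remaining ones. A UMI was found in 35.7% of members, with at most 5 UMIs in 1 cell, against 5% of the remaining cells and 1.09% of somatic cells. With cells thinned to 7000 UMIs the shares were 14.3%, 2% and 0.543%. The endothelial markers Tek, Vwf and Tie1 were at 0 in the members, and Pecam1 and Cdh5 gave 4 and 9 UMIs. Egfl7, the most abundant gene of the endothelial list, gave 79 of the 97 UMIs of this list in members, and at 49.8 CPM against 46.5 in the other germ cells it did not separate the members (1.07-fold, 0.809 to 1.40). Rab4a, a small GTPase of recycling endosomes, was 7.79 times higher (4.11 to 15.8), with 43 UMIs against 13. The homeobox gene Prrx2 was 7.21 times higher, the basement membrane gene Nid1 6.91 times, the TNF-family ligand gene Tnfsf12 6.81 times and the P-cadherin gene Cdh3 6.73 times. Each of these 4 had 52 or fewer UMIs in the members, and Nid1 was more abundant in somatic cells, at 86.3 CPM, than in members, at 27.7. Pdzd2, which encodes a PDZ-domain protein, had more counts behind it: 151 UMIs in members, or 95.1 CPM, against 15.2 CPM in the other germ cells. Fst encodes follistatin, which binds activin. It was at 53.5 CPM in members and 9.09 in the other germ cells, and at 2.32 in somatic cells. Rasl11a, a RAS-like GTPase, was at 74.3 and 13.1 CPM, and the phosphatase gene Ppm1j was 5.68 times higher (3.16 to 10.7). The other genes among the leading 15 were Pqlc1, the unnamed transcript RP23-198F11.3, Spry4, Dusp6 and Egr2.

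Of the 10 genes with the largest ratios over the remaining Kit/Stra8-low cells, Plvap and Prrx2 came first, and Nid1, Cdh3, Rab4a and Spry4 were also among those described above. Lhx2, a LIM-homeobox factor like Lhx1, was at 22.7 CPM in members and 2.96 in the remaining cells (7.65-fold, 3.19 to 22.2). It was found in 25 members, and 0.272% of somatic cells carried it. Cnn2, which encodes an actin-binding calponin, was at 34.0 and 5.43 CPM, and at 140 in somatic cells. Cdkn1a, the cyclin-dependent kinase inhibitor p21, was at 34.0 and 5.93 CPM and was found in 32.9% of members against 9% of the remaining cells. Cdc42ep3, an effector of the GTPase CDC42, was the last of the genes not among those above, at 5.83-fold (2.53 to 15.6).

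Genes of the GDNF receptor and its signal chain were partly higher. Of 22 listed genes 15 could be compared, and 4 were at least 2-fold higher over the other germ cells and 0 lower, with a median log2 ratio of 0.20. Over all compared genes 2.92% were higher and 3.5% lower. The 4 higher genes of the list were Gfra1, Ret, Fyn and Pik3ca. Ret was at 96.4 CPM in members and at 48.9, 28.5 and 2.72 in the remaining, Kit/Stra8-high and late cells. Its ratio was 2.79 (2.20 to 3.56) over the other germ cells and 1.97 (1.52 to 2.56) over the remaining ones. Fyn, a SRC-family kinase, was at 101 CPM in members and 39.8 in the other germ cells, and Pik3ca, the catalytic subunit of PI3-kinase, at 41.6 and 17.9. The adaptor Grb2 did not separate the classes, with a ratio of 1.02 (0.778 to 1.34), and Akt1 had a ratio of 0.533 (0.334 to 0.821), short of 2-fold. Over the remaining Kit/Stra8-low cells only Gfra1 of this list was past 2-fold.

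Most compared genes known to respond to GDNF were higher than in the other germ cells. Of the 10 that could be compared among 18 listed, 8 were at least 2-fold higher over the other germ cells and 5 over the remaining ones, with none lower and median log2 ratios of 1.46 and 1.07. The shares over all compared genes were 2.92% and 3.13%. The count limit included the members' own UMIs, so listed genes low elsewhere could be compared only if the members were high. The 8 of 10 therefore describe these genes and are no support for the list. Etv4, an ETS factor related to the rule's Etv5, was at 80.0 CPM in members and 23.7, 25.5 and 5.44 in the remaining, Kit/Stra8-high and late cells. Egr2, a zinc finger factor induced by growth factor signals, was at 49.1, 11.4 and 8.15 CPM in the first 3 classes and at no UMI in late cells. Ccnd2, the D-type cyclin of spermatogonia, was found in all 70 members. It was at 863 CPM (818 to 910) in members, 302 in the remaining cells, 500 in Kit/Stra8-high cells and 85.7 in late cells, so that its level was not ordered along differentiation. Trib1, which encodes a pseudokinase, was at 25.2 and 4.94 CPM in members and remaining cells. Hhex, Tspan8 and Nanos2 were past 2-fold over the other germ cells but not over the remaining ones. Mycn went the other way, at 26.5 CPM in members and 44.5 in the remaining cells, with a ratio of 0.755 (0.520 to 1.08) over the other germ cells that did not reach 2-fold.

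Part of the list of FGF receptors and MAPK feedback genes was higher, mostly inhibitors of the cascade. Of its 29 genes 15 could be compared. At least 2-fold higher were 7 over the other germ cells and 7 over the remaining cells, against 2.92% and 3.13% of all compared genes, and none was lower. The other 8 were within 2-fold in each contrast. Etv4 is among these 7 and was counted with the GDNF targets too. Spry4, a Sprouty inhibitor of receptor tyrosine kinases, had 41 UMIs in members and 16 in the other germ cells (6.04-fold, 3.32 to 11.5). Il17rd, which encodes the FGF antagonist SEF, was at 28.3 CPM in members and 7.41, 4.08 and 2.72 in the other classes. Phlda1 was at 51.0, 15.8, 2.04 and 1.36 CPM in the same order, and Dusp5, a nuclear ERK phosphatase, at 35.3, 14.8, 13.3 and 8.16. Spred2 was past 2-fold over the other germ cells and Dusp7 over the remaining ones. Of the kinases of the cascade, Map2k1 had a ratio of 1.12 (0.849 to 1.47) and Mapk3 0.816 (0.634 to 1.04), both within 2-fold. The receptor gene Fgfr1 gave 33 UMIs in members, with a ratio of 0.883 (0.573 to 1.33).

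The promoters of Dusp6 and Egr2 are shown because both genes lie in these groups of signal-induced genes and were among the 15 with the largest ratios. Each sequence is the 250 bases before an annotated start, from RefSeq on GRCm38.p6, plus strand, at chr10:99262981-99263230 for Dusp6 and chr10:67535249-67535498 for Egr2. Capitals mark a searched motif.
Dusp6: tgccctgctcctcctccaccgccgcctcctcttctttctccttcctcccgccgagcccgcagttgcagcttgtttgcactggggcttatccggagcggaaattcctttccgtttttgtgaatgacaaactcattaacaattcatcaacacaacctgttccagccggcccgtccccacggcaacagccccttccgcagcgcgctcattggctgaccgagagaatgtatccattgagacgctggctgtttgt
Egr2: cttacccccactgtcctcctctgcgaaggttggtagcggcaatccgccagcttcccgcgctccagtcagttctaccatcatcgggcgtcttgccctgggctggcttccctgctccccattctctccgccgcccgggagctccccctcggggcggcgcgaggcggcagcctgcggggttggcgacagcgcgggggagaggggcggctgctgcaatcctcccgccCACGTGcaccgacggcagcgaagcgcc
The motifs searched, on both strands, were CCGGAAGT for ETS factors, TGACGTCA for CREB, TGACTCA for AP-1 and the E-box CACGTG, none of which overlaps another. The Egr2 sequence, 1 of 5 listed for this gene, holds CACGTG with its first base 27 bases before the start. The other 4 Egr2 sequences and the Dusp6 sequence hold none of the motifs. Of the 237 higher genes 170 had a listed promoter, and 2.35% held the ETS motif, 3.53% the CREB motif, 5.29% the AP-1 motif and 8.82% the E-box. The shares in the 6284 matched genes of all compared were 8.37%, 3.61%, 3.21% and 11.2%, and in all 32851 listed promoters 2.88%, 1.55%, 4.46% and 6.02%. These matches describe letters in a window and say nothing on binding.

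Part of the list of other stem cell pool genes was higher. Of 13 compared among 22 listed, 8 were past 2-fold over the other germ cells and 5 over the remaining ones, with none lower and medians of 1.27 and 0.78 on the log2 scale, where 2.92% and 3.13% of all compared genes were higher. This list shares Id4, Nanos2 and Tspan8 with the GDNF targets. Tcl1, a coactivator of AKT, was at 165 CPM (146 to 186) in members and 42.0, 22.4 and 8.16 in the remaining, Kit/Stra8-high and late cells. It was found in 66 of 70 members. Foxc2, a forkhead factor of quiescent SSCs in the adult, was at 53.5 CPM and 14.8, 14.3 and 1.36. Mcam, an adhesion molecule, was at 134 CPM in members and 43.0 in the other germ cells, and the zinc finger gene Glis3 at 61.1 and 25.4. Chd4, the remodeling ATPase of the NuRD complex, was at 610 CPM and 355 (1.72-fold, 1.58 to 1.87), under the 2-fold limit. The transcript of Brachyury (T) gave 17 UMIs in members and 2 in all other germ cells. It was below the count limit and in 15.7% of members.

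**Figure D3:**
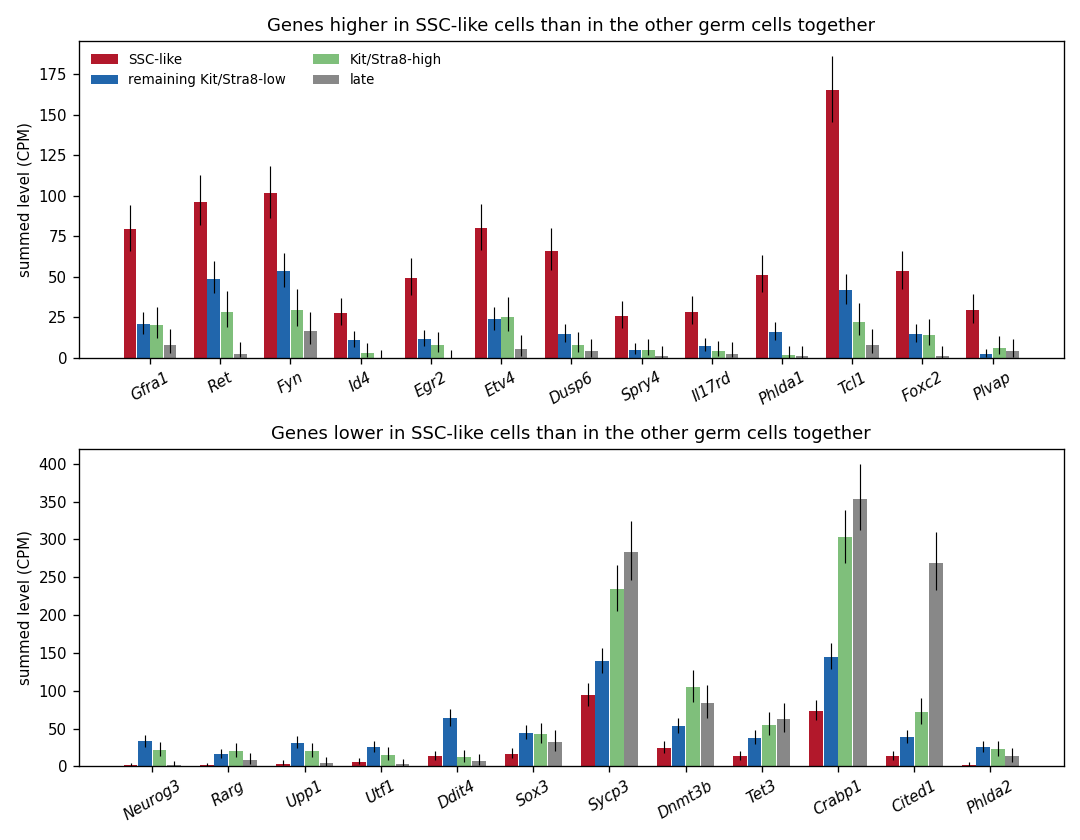
Summed level in CPM (y axes, from 0) of genes outside the rule in SSC-like (n = 70), remaining Kit/Stra8-low (n = 100), Kit/Stra8-high (n = 49) and late (n = 46) cells; bars are levels and lines exact 95% Poisson intervals for counting error. Tcl1 stands at 165 CPM in SSC-like cells and 42.0 in the next class, while Neurog3 stands at 1.26 and 33.1.

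Part of the progenitor list was lower in the members. Of 16 compared among 18 listed, 7 were at least 2-fold lower over the other germ cells and the same 7 over the remaining Kit/Stra8-low cells, with none higher and median log2 ratios of -0.77 and -0.94. The other 9 were within 2-fold in both contrasts. Of all compared genes 3.5% and 2.38% were lower. Neurog3, the basic helix-loop-helix factor of committed progenitors, gave 2 UMIs in the 70 members (1.26 CPM) and 67 in the 100 remaining cells (33.1 CPM). The ratio was 0.0381 (0.00452 to 0.143). A Neurog3 UMI was found in 2.86% of members and 28% of the remaining cells, against 0.815% of somatic cells. Rarg, the receptor that makes progenitors sensitive to retinoic acid, also gave 2 UMIs in members and was at 16.8 CPM in the remaining cells. Upp1, which encodes uridine phosphorylase, was at 3.78 and 31.6 CPM, and Utf1, a chromatin factor of undifferentiated cells, at 6.30 and 25.2. Ddit4, an inhibitor of mTORC1, was at 13.9 and 64.2 CPM, but at 12.2 and 6.80 in Kit/Stra8-high and late cells, so that the members resembled the later cells in this gene. Sox3 was at 16.4 and 44.5 CPM. Its log2 ratio over the other germ cells was -0.21 with cells thinned to 7000 UMIs, which is not past 2-fold. Several progenitor genes were within 2-fold: Nanos3 had a ratio of 0.776 (0.602 to 0.993) over the other germ cells, Lin28a 0.657 (0.497 to 0.859) and Sall4 0.839 (0.672 to 1.04). Foxf1 did not differ from the other germ cells together (log2 ratio 0.01, -0.51 to 0.50), as it was at 54.3 CPM in the remaining cells and 3.06 in Kit/Stra8-high cells.

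Individual genes among the lowest came from several functions. Pcsk1n, which encodes the protease inhibitor proSAAS, gave 3 UMIs in members and 167 in the other germ cells, a ratio of 0.0423 (0.00864 to 0.126). The imprinted gene Phlda2 gave 3 and 85 UMIs, and the cation channel gene Trpv2 5 and 140. Cited1, a transcriptional coregulator, was at 13.9 CPM in members and at 39.0, 71.4 and 269 in the remaining, Kit/Stra8-high and late cells. P3h3, a collagen prolyl hydroxylase, was at 22.0, 41.5, 96.8 and 374 CPM. Cdk6 gave 6 UMIs in members and 82 in the other germ cells, the chromatin remodeling subunit Baz1a 6 and 99, the LIM-only gene Lmo1 15 and 190, and Zswim5 2 and 60. Against the remaining Kit/Stra8-low cells alone, Tmcc3 gave 1 UMI and 40, with a ratio of 0.0319 (0.000788 to 0.188), and the cyclin J-like gene Ccnjl 2 and 38.

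Differentiation genes were lower mainly against the later classes. Of 19 compared, 8 were at least 2-fold lower over the other germ cells and 3 over the remaining ones, against 3.5% and 2.38% of all compared genes, while Ccnd2 was higher in both. The synaptonemal complex gene Sycp3 was at 94.5 CPM in members and 140, 234 and 283 in the remaining, Kit/Stra8-high and late cells. Dmrtb1, a factor for the mitosis to meiosis switch, was at 12, 14.8, 11.2 and 128 CPM, so that only the late cells differed, and Meioc, required for meiotic prophase, gave 2 UMIs in members and 55.8 CPM in late cells. Since Kit and Stra8 set the classes, this order is in part that of the rule. Among 7 genes of retinoic acid handling, 3 were lower over the other germ cells and none higher, where the same 3.5% applies. Crabp1, which binds retinoic acid in the cytoplasm, was at 73.7 CPM in members and 145, 303 and 354 in the other classes. Of 24 general germ cell genes compared, 0 were past 2-fold in either direction or contrast. Mov10l1, a piRNA pathway helicase, was at 138 CPM in members and 141 in the other germ cells, and Dnd1, which binds RNA in germ cells, at 105 and 103.

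The graded score was followed into the cells below the limit. Among Kit/Stra8-low cells Gfra1 was at 9.75 CPM in the 57 cells that scored 0, 21.4 in the 22 cells under 1, 49.1 in the 21 cells from 1 to 2, 71.7 in the 30 members under 4 and 85.1 in the 40 members at 4 or more. Tcl1 took the values 23.9, 53.4, 77.1, 158 and 170 CPM over the same bins. Dusp6 was at 5.32, 10.7, 44.4, 51.2 and 77.4 CPM, and thus as high in the cells just below the limit as in the lower scoring members, within their intervals. Neurog3 was at 48.8, 17.1, 9.34, 1.46 and 1.11 CPM. Upp1 stayed at 23.4 CPM in the cells from 1 to 2 and was at 5.85 in the members under 4. The cells just outside the rule therefore carried both Gfra1 and progenitor transcripts as a group. All bins come from the same library, with median depths between 19372 and 22382.5 UMIs per cell.

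**Figure D4:**
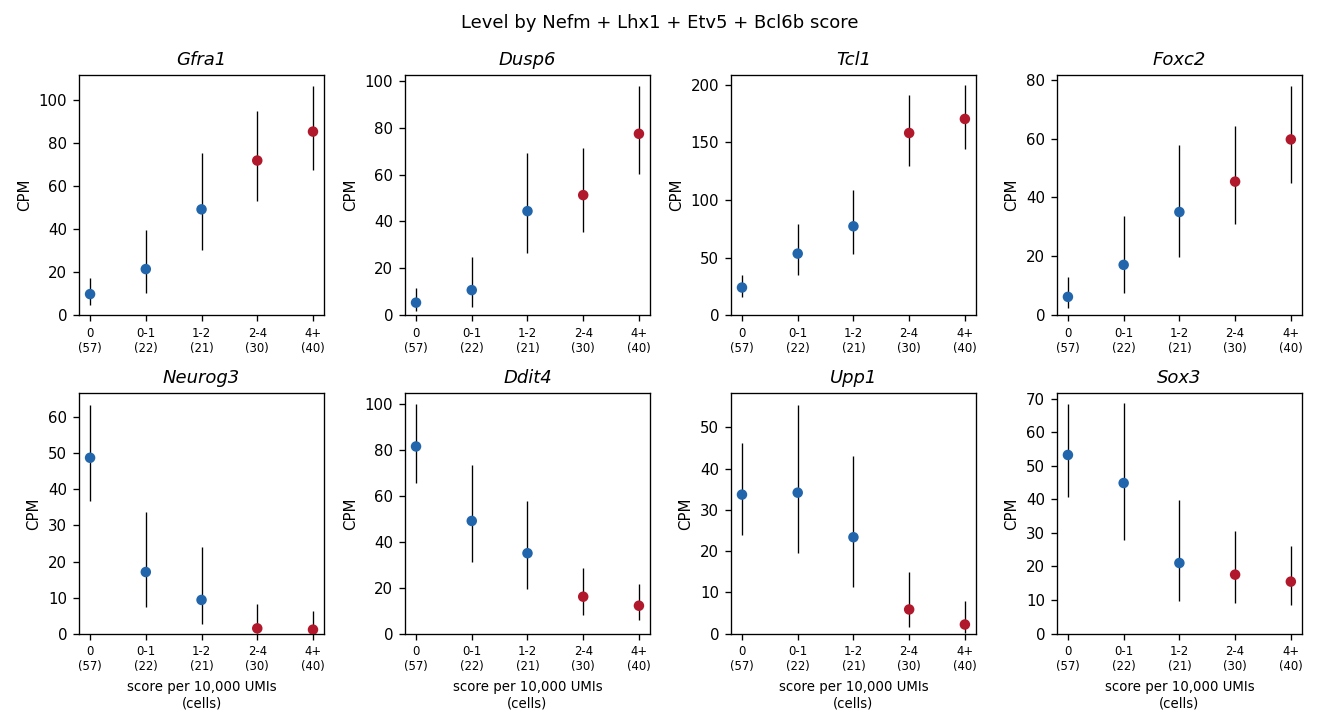
Level in CPM (y axes) of 8 genes outside the rule in Kit/Stra8-low cells grouped by their score of Nefm, Lhx1, Etv5 and Bcl6b (x axes, per 10000 UMIs, number of cells in brackets); points are summed levels and lines exact 95% Poisson intervals. Red points are the 70 members and blue points the 100 remaining cells; Gfra1 goes from 9.75 to 85.1 CPM and Neurog3 from 48.8 to 1.11.

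The members differed among themselves. Per 10000 UMIs of a cell, Gfra1 had a median of 0.603 and reached 3.48, with 54 of 70 cells above 0. Ret was found in 57 members, Dusp6 in 44, Foxc2 in 45, Egr2 in 37, Id4 in 30, Spry4 in 29 and Plvap in 25. At these low levels a cell without a UMI is not shown to lack the transcript. The 6 genes Gfra1, Ret, Dusp6, Tcl1, Foxc2 and Egr2 are all among those called higher in these same members. A larger share in members was thus fixed in advance and is no check of the label. Of these 6 genes, at least 4 were found in 54 members (77.1%) and all 6 in 16. The same held for at least 4 genes in 16% of the remaining Kit/Stra8-low cells, 12.2% of Kit/Stra8-high cells and 2.17% of late cells. With cells thinned to 7000 UMIs the shares were 25.7%, 1%, 2.04% and 0%. At full depth no member had 0 of the 6 genes and 3 members had at most 1, whereas after thinning 3 members had 0.

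Cell cycle transcripts were more abundant in SSC-like cells than in the remaining Kit/Stra8-low cells. The list of S phase genes took a median of 42.2 UMIs per 10000 in members (lowest 11, highest 100), 29.0 in the remaining Kit/Stra8-low cells, 49.9 in Kit/Stra8-high cells and 54.8 in late cells. The list of G2 and M phase genes took 67.6, 44.6, 65.1 and 86.4. The members thus lay above the remaining Kit/Stra8-low cells and near the Kit/Stra8-high cells, with ranges over cells that overlapped widely. By score, the S phase list summed to 2953 CPM in the 57 remaining cells at 0, 4079 in the remaining cells from 1 to 2, 4032 in the members under 4 and 4994 in the members at 4 or more. The G2 and M phase list summed to 4582, 6836, 6962 and 7160 CPM in the same bins. The remaining cells just below the limit were thus near the lower scoring members, and the cells at 0 were the lowest. A UMI of the proliferation marker Mki67 was found in 55.7% of members (43.3 to 67.6%) and 33.0% of the remaining cells (23.9 to 43.1%), and in 63.3% of Kit/Stra8-high and 71.7% of late cells. After thinning the shares were 32.9%, 18%, 28.6% and 47.8% in the same order. In somatic cells, which at this age include dividing cells, the share was 16.6%, and 12.8% after thinning. Few single genes were past 2-fold: of 41 S phase genes compared, Uhrf1 and Prim1 were higher over the remaining cells, and of 50 G2 and M phase genes Cdk1 and Top2a. Over all compared genes 3.13% were higher in this contrast. Top2a, a topoisomerase of dividing cells, was at 273 CPM in members and 136 in the remaining cells. Uhrf1, which brings DNMT1 to replicating DNA, was at 195 and 76.6 CPM. Ccnd1 did not follow Ccnd2, with a ratio of 1.08 (0.903 to 1.29) over the other germ cells.

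**Figure D5:**
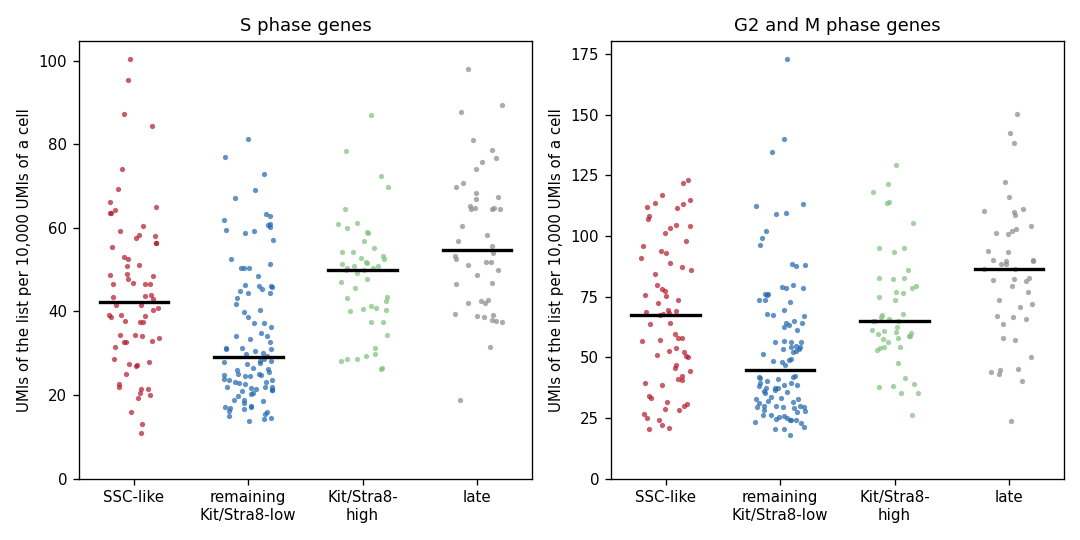
UMIs of the S phase list (left) and the G2 and M phase list (right) per 10000 UMIs of a cell (y axes) in SSC-like (n = 70), remaining Kit/Stra8-low (n = 100), Kit/Stra8-high (n = 49) and late (n = 46) cells; points are cells and bars medians. The medians of SSC-like cells, 42.2 and 67.6, lie above those of the remaining Kit/Stra8-low cells, 29.0 and 44.6.

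Chromatin genes differed in a few members only. Of 11 DNA methylation genes compared, Uhrf1 was higher and Dnmt3b and Tet3 lower in both contrasts. Of all compared genes 2.92% were higher and 3.5% lower over the other germ cells, and 3.13% and 2.38% over the remaining ones. Dnmt3b, a de novo methyltransferase, was at 24.6 CPM in members and 53.4, 105 and 84.3 in the remaining, Kit/Stra8-high and late cells. Tet3, which oxidizes methylcytosine, was at 13.2, 38.0, 55.0 and 62.6 CPM. Of 13 genes of the SRCAP complex and its acetyltransferase partners that could be compared, 0 were past 2-fold, and 0 of 13 NuRD subunits were. Srcap was at 13.9 CPM in members and 15.5 in the other germ cells, Crebbp at 141 and 133, and Ep300 at 21.4 and 20.3. Zscan2, the gene deleted in the knockout, was under the count limit and was not compared. It gave 9 UMIs in the members (5.67 CPM) and was at 5.88 CPM in the other germ cells. These counts are too few to tell whether the classes differ.

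Sertoli, stromal, myoid, macrophage, Leydig and red blood cell transcripts were low in the members beside the somatic cells, whereas the endothelial and T cell lists were nearer to the somatic level. The Sertoli list summed to 228 CPM in SSC-like cells, 220 in the remaining Kit/Stra8-low cells and 5764 in somatic cells, and its most abundant gene was Ctsl. The myoid list summed to 56.7 CPM in members, 43.4 without the member rich in somatic transcripts, and 1811 in somatic cells. The endothelial list summed to 61.1 CPM in members, 60.7 in the other germ cells and 87.3 in somatic cells. The stromal list summed to 252 CPM in members, 194 in the other germ cells and 5909 in somatic cells, and Dcn and Mfap4 of it were past 2-fold. The 1 member with many somatic transcripts held 42 of the 64 Dcn UMIs and 26 of the 41 Mfap4 UMIs of the class, and without it neither was past 2-fold, with ratios of 1.01 (0.585 to 1.69) and 0.746 (0.388 to 1.36). The same cell held 19 of 32 UMIs of the filament gene Vim, whose ratio was 2.90 with it and 1.19 (0.564 to 2.41) without. Among 15 imprinted genes, Mest, H19, Meg3 and Gnas were past 2-fold with this cell, where 2.92% of all compared genes were higher. Without it Mest alone remained at 2.74 (1.87 to 4.03), and Meg3 was at 1.74, H19 at 1.70 and Gnas at 1.86. Fcer1g, an Fc receptor subunit of the macrophage list, was at 33.4 CPM in members and 11.8 in the other germ cells with no UMI in that cell. The macrophage genes Lyz2 and C1qa were at 11.3 and 6.30 CPM in members and at 902 and 371 in somatic cells. Of the Leydig list 0 genes could be compared, and it summed to 5.04 CPM in members and 193 in somatic cells. The macrophage list summed to 90.1 CPM in members, 60.7 in the other germ cells and 3350 in somatic cells. The level in members was 1.48 times that in the other germ cells (1.20 to 1.84). Without the member rich in somatic transcripts the list summed to 90.7 CPM. The T cell list summed to 37.2 CPM in members, 22.2 in the other germ cells and 67.9 in somatic cells, which is 1.67 times the level in the other germ cells (1.18 to 2.37), and Coro1a gave 45 of its 59 UMIs in members. The red blood cell list summed to 92.6 CPM in members and 2805 in somatic cells. What part free RNA has in these levels was not tested.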

How the data were processed

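Cells came from 1 wild-type library of 3 pooled mice. Per the labels, the authors used Cell Ranger 2.1.0 and the mm10 build. Their deposited matrix holds raw UMI counts, with genes in rows and barcodes in columns. The files list 27998 genes, of which 18722 had a UMI, and 11358045 UMIs, with 2655 to 44915 per barcode (median 9115). The limits left out 10 barcodes for genes, 36 for mitochondrial share and 222 for UMIs. Doublets were kept in the main analysis: scrublet in scanpy 1.11.5 marked 4 of 970 barcodes, 1 of them a member.

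UMIs were summed over the cells of a class and divided by the UMIs of the class (CPM). Levels have exact Poisson, ratios exact conditional binomial and shares exact (Clopper-Pearson) binomial intervals at a 95% level, computed with numpy 2.4.6 and scipy 1.17.1 and tested on simulated data. Genes with at least 50 UMIs in all germ cells, members included, were compared, and a gene was called at a ratio of 2 or more or its inverse. Named genes are the 15 highest and 10 lowest over the other germ cells and the 10 highest and 5 lowest over the remaining Kit/Stra8-low cells, among genes found in at least 25% of the cells of the higher class with no more than a fraction of 0.5 of its UMIs in 1 cell, and any gene of the fixed lists. The ranks did not follow the printed ratios in every case: Cdkn1a, at 5.74-fold, ranked above Cdc42ep3, at 5.83-fold. T, Eomes, Thy1 and Zscan2 lie under the count limit. The members and lists were chosen with earlier results of these data known. Shares were repeated with cells thinned to 7000 UMIs. The 17 alternatives cover the rule, the limits, doublets, scaling and count filters. Some members of the gene lists are not reported here by name.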

Additional observations from a re-analysis of the deposited data

How the results depend on the processing

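The number of members depended on the rule: 40 cells scored at least 4, 34 scored at least 2 without Nefm, and 4 were left with a mitochondrial limit of 5%. Among these 4 was the member rich in somatic transcripts. Under the other alternatives to the rule and limits the number of members stayed within 1.5 times. The gene counts moved with the mitochondrial limit, with thinning and with the count filter. Genes higher over the other germ cells numbered 25 with the 5% limit, 88 with thinned cells, 466 with at least 20 UMIs, 41 with at least 200 and 2232 with no filter. The lower ones numbered 89, 165, 670, 34 and 3504. Of the 237 higher genes of the main comparison, 2 were called with the 5% limit and 46 with thinned cells. Of its 284 lower genes, 2 and 48 were called. Over the remaining Kit/Stra8-low cells the higher genes numbered 72, 142, 565, 29 and 2347 and the lower ones 127, 113, 514, 20 and 2517, and 316 were lower when the score left out Nefm. Of the 254 higher genes of the main comparison with these cells, 2 were called with the 5% limit and 37 with thinned cells. Of its 193 lower genes, 0 and 29 were called. A filter on counts changes which genes enter. Thinned cells and the 5% limit also leave fewer UMIs to meet the same count limit, so genes can drop out uncompared. How many dropped out in this way was not counted. The numbers still called there thus do not show whether the ratios of the other genes held. The cause of the other changes was not tested. Of 570 ratios of 43 named genes under these settings, 531 moved by less than their interval, 39 moved further and 0 changed direction. Leaving out the doublet, which is also the member rich in somatic transcripts, gave 230 higher and 286 lower genes, and leaving out hemoglobin-rich barcodes removed no germ cell. No paired analysis was possible because a single library entered the comparisons. With 1 pool of mice, variation between animals was not measured, and low transcripts cannot be called absent from single cells at this depth.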

Other observations

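Immediate early genes, which cells induce within minutes of a signal or of handling, were higher in part. Of 16 compared among 26 listed, 6 were at least 2-fold higher in SSC-like cells than in the other germ cells (Fos, Egr1, Egr2, Ier3, Zfp36 and Dusp1) and none was lower, where 2.92% of all compared genes were higher. Fos was at 19.5 CPM in members and 4.45 in the remaining Kit/Stra8-low cells, and at 336 in somatic cells. Egr4 was at 213 CPM in members and 346 in the remaining cells. The part of tissue dissociation in these levels was not tested.

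Of 7 Notch genes compared, 2 were at least 2-fold higher in members than in the other germ cells and 3 lower, against 2.92% and 3.5% of all compared genes. Notch1 was at 22.7 CPM in members and 8.82 in the other germ cells, and its target Hes1 at 106 and 46.8, while Dll3, Hes5 and Hey1 were the lower ones. Over the remaining Kit/Stra8-low cells only Notch1 was higher and only Hey1 lower, where 3.13% and 2.38% of all compared genes were. Of 9 BMP genes compared, Id4 and Smad7 were higher and 0 lower, and Smad7, an inhibitor of TGF-beta family signaling, was at 52.3 CPM in members and 16.3 in the other germ cells. Of 18 glycolysis genes only Bnip3, a mitochondrial protein induced by hypoxia, was past 2-fold, at 30.2 CPM in members and 94.4 in the other germ cells, where 3.5% of all compared genes were lower.

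Over all compared genes 2.92% were higher and 3.5% lower in members than in the other germ cells. Among 17 genes of FOXO factors and mTORC1 restraint, Ddit4 and the sestrin gene Sesn3 were at least 2-fold lower in members than in the other germ cells and 0 were higher. Of 16 G1 cyclins and CDK inhibitors, Ccnd2 and Cdkn1a were higher and Ccne2 and Cdk6 lower. Of 9 surface proteins used to enrich spermatogonia, Mcam, Tspan8 and Gfra1 were higher. Of 9 hedgehog genes listed 2 were compared, and 0 were past 2-fold.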
